A study of Homo sapiens with 4 samples.

Results

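The 9 genes described here encode 3 matrix metalloproteinases (MMP1, MMP2 and MMP14), 3 tissue inhibitors of metalloproteinases (TIMP1, TIMP2 and TIMP3) and 3 proteins of plasminogen activation (PLAU, PLAUR and PLAT). They were chosen by gene name, and all 9 were present among the 58735 genes of each library. Expression was measured by RNA sequencing in 769-P cells, a human renal clear cell carcinoma line. All cells, controls included, were labelled wild type and carried a stably transfected, inducible short hairpin RNA against USP35, a deubiquitylating enzyme, and were kept under puromycin. The 2 control libraries came from untreated cells, and the 2 doxycycline libraries from cells given doxycycline at 1 µg/ml over 4 days, which switches the hairpin on. A library with doxycycline but no hairpin was not analysed here, so effects of the drug and of the hairpin cannot be told apart. The labels do not say whether replicates came from separate cultures, so the p-values rest on the spread between these libraries alone, which may be technical.

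Matrix metalloproteinases are zinc enzymes made as inactive precursors that cut collagens and other proteins outside the cell. TIMPs bind their active sites, and TIMP2 also acts with the membrane-anchored MMP14 in the activation of the MMP2 precursor. The urokinase-type activator encoded by PLAU binds its receptor, encoded by PLAUR, at the cell surface and turns plasminogen into plasmin, which cuts fibrin and activates several MMP precursors. In kidney tumours this machinery is known for its part in invasion through basement membrane. Tetracyclines such as doxycycline are also known as inhibitors of MMP activity.

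Depth lay between 16319640 and 18764546 reads per library, recovered from the steps in the deposited FPKM values (reads relative to gene length and library size). The library size behind the FPKM was 97.21% and 100.99% of these reads in control replicates 1 and 2. It was 107.53% and 97.6% in doxycycline replicates 1 and 2. Doxycycline replicate 2 stood apart in its mitochondrially encoded reads, 14.6% of the total against 7.44% to 8.50% in the other libraries. USP35 had 3.31 and 4.19 FPKM without doxycycline and 2.11 and 2.54 FPKM with it, lower in both (limma log2 difference -0.51, adjusted p = 0.256). Being lower in both applied to 28.9% of the 12029 genes that averaged 1 FPKM or more, so that position alone does not set USP35 apart. Of 8 renal epithelial markers, 7 had a mean of at least 1 FPKM, PAX8 among them, whereas of 4 markers of clear cell carcinoma only VEGFA did, and CA9 and NDUFA4L2 lay between 0 and 0.0899 FPKM. Summed endothelial and leukocyte markers reached at most 0.00512 and 0.0678 FPKM.

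FPKM are per length, so levels of the 9 genes can be ordered within a library. In the controls the order from the highest level was PLAU, TIMP1, TIMP2, MMP14, MMP1, PLAUR, TIMP3, MMP2 and PLAT. The ranges of the 2 control libraries did not overlap between any neighbours in that order. With doxycycline TIMP1 ranked first and PLAU second in both libraries, followed by TIMP2 and MMP14. PLAU overlapped TIMP1 and TIMP2 there, and the order of the 5 low genes (MMP1, MMP2, TIMP3, PLAUR and PLAT) differed between the doxycycline libraries.

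**Figure D1:**
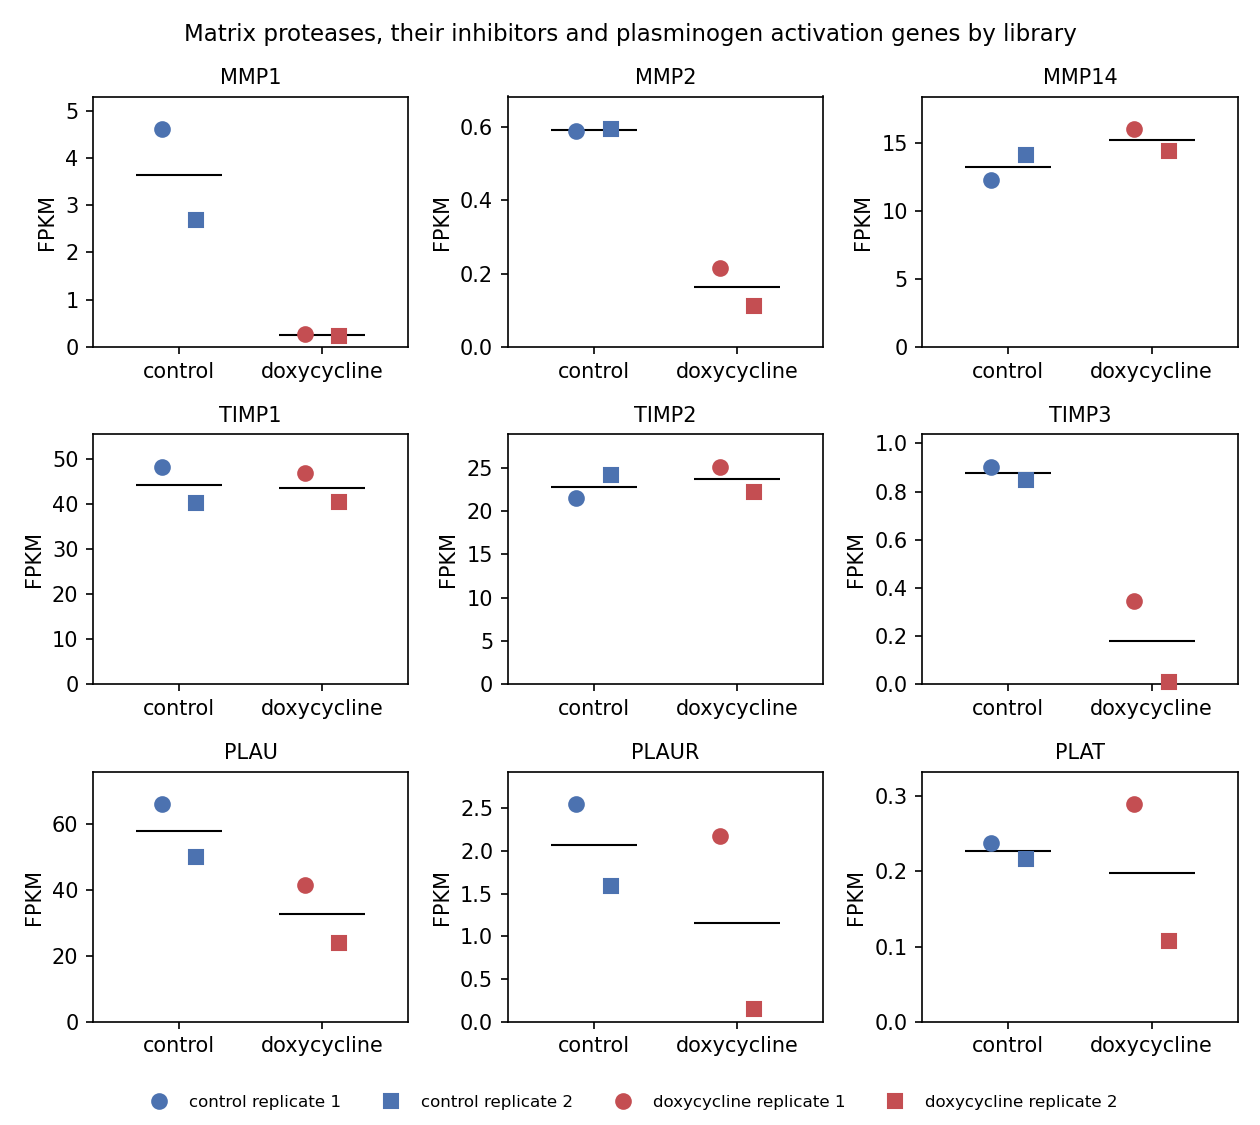
FPKM of the 9 genes (vertical axes, each from 0) in the control (blue) and doxycycline (red) libraries; circles are replicate 1, squares replicate 2, and lines are group means of 2 libraries. MMP1, MMP2, TIMP3 and PLAU were below both controls in both doxycycline libraries, whereas TIMP1 and TIMP2 overlapped. Being lower in both applied to 28.9% of all genes tested and to 17.9% of genes with a mean from 0.1 to 1 FPKM.

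In FPKM, 4 of the 9 genes were below both controls in both doxycycline libraries (MMP1, MMP2, TIMP3 and PLAU). MMP14 alone was higher in both, and 4 overlapped (TIMP1, TIMP2, PLAUR and PLAT). Being lower in both applied to 17.9% of the 8276 genes with a mean from 0.1 to 1 FPKM, the class of MMP2 and TIMP3. Differences were tested with limma on log2(FPKM + 1), doxycycline minus control, over the 12029 genes that averaged 1 FPKM or more, a scale that understates the change of low genes. Of the 9 genes 6 entered that test, and MMP2, TIMP3 and PLAT lay below the filter. MMP1 passed the filter only through its controls, so its presence among the 6 is itself tied to its difference. None of the 6 had an adjusted p under 0.05, as was so for 0.0% of all genes tested. At an unadjusted p under 0.05 limma gave 2 of the 6, MMP1 and PLAU, both lower, against 18.3% of all genes in either direction and 11.9% lower, and limma-voom on recovered reads with library totals also gave 0 at the adjusted threshold. Being lower in both doxycycline libraries applied to 2 of the 6 tested genes and to 28.9% of all genes tested, so that position alone does not set PLAU or MMP1 apart. MMP14 was higher in both, as were 24.3% of all genes, and together 3 of the 6 lay to 1 side of both controls, against 53.2%. The ratio of group means was under 0.5 for MMP1 alone of the 6, against 6.07% of all genes, and above 2 for 0 of the 6, against 4.36%. With 2 libraries in each group, the smallest p of an exact permutation test of 1 value (two-sided) is 0.333.

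The starts of 5 of the 9 genes are in the RefSeq promoter table (GRCh38.p14), and the 250 bases before the start are shown for PLAU, PLAUR and TIMP3, which were low in at least 1 doxycycline library, and for TIMP1, which overlapped between the groups. Capitals mark every match, on either strand, to the AP-1-like element TGAGTNA, which includes the AP-1 element TGAGTCA, or to the GC box GGGCGG, which reads as CCGCCC when it lies on the other strand. For PLAU, RefSeq gives a pair of starts, and the one shown lies within 50 bases of the start of both GENCODE basic transcripts. For PLAUR it does so for 2 of 4 such transcripts, for TIMP1 for 2 of 3 and for TIMP3 for 1 of 1. Positions below refer to the start shown, and PLAUR and TIMP1 have others. The PLAU region is chr10:73910882-73911131 (plus strand), the PLAUR region chr19:43670170-43670419 (minus strand), the TIMP3 region chr22:32801455-32801704 (plus strand) and the TIMP1 region chrX:47582186-47582435 (plus strand).
PLAU: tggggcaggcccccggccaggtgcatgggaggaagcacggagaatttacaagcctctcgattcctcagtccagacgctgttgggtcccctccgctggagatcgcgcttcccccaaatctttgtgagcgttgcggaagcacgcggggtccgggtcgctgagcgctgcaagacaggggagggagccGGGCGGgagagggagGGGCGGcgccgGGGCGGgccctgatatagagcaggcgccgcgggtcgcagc
PLAUR: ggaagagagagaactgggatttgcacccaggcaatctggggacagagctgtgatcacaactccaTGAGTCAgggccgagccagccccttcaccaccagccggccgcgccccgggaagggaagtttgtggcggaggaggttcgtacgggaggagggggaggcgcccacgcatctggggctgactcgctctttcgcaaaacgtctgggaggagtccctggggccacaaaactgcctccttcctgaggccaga
TIMP3: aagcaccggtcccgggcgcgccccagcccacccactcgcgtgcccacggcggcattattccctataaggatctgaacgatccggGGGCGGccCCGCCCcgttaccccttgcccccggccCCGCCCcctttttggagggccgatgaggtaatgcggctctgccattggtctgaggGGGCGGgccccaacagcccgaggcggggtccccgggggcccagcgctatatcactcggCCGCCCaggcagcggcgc
TIMP1: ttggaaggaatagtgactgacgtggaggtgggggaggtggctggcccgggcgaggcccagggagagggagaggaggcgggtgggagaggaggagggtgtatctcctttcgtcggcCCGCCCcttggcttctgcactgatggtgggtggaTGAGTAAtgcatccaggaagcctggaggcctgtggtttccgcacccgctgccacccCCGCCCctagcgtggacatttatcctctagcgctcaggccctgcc
PLAUR holds TGAGTCA at 186 to 180 bases before its start, an element found in 4.2% of all 35116 windows of this length and in 2.82% of those of genes tested. TIMP1 holds the related TGAGTAA at 101 to 95 bases before its start, and TGAGTNA was found in 10.8% of all windows. PLAU, TIMP3 and TIMP1 hold 3, 5 and 2 GC boxes, an element found in 42.6% of all windows and in 65.2% of those of genes tested. The TATA box TATAAA was searched on both strands as well and had no match in these windows. A match is a string of letters and not a measured binding site.

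MMP1 (ENSG00000196611, GRCh38 chromosome 11, 102789920 to 102798160, minus strand), the interstitial collagenase that cuts fibrillar collagens, had the lowest ratio of group means among the 9 genes. It stood at 4.61 and 2.68 FPKM in control replicates 1 and 2 and at 0.270 and 0.222 FPKM in doxycycline replicates 1 and 2. Both doxycycline libraries were low and close to each other in FPKM, and the controls differed by more than the doxycycline libraries did. These values rest on 144, 92, 10 and 8 reads. The ratio of doxycycline replicate 2 to replicate 1 was 0.821, with a wide 95% exact interval of 0.282 to 2.31 (counting error only). The means were 3.64 ± 1.36 and 0.246 ± 0.034 FPKM (SD, n = 2 each), a ratio of 0.0675. The ratio of pooled reads had a 95% exact interval of 0.0398 to 0.110, an interval for counting error alone, because reads not marked by molecular identifiers may be copies of one molecule. On the log2 scale the difference was -1.87, standard error 0.27 (limma adjusted p = 0.0573), and 106 genes shared that lowest adjusted p. The call depended on the genes tested and the scaling. The limma adjusted p was 0.0338 over protein-coding genes, of which 2.37% passed. It was 0.0497 by voom with median-of-ratios sizes, where 1.01% of all genes passed. The log2 difference was -1.89 and -1.84 without doxycycline replicates 1 and 2, and -1.56 and -2.17 without control replicates 1 and 2. In bulk RNA, fewer cells that express a gene and less RNA per cell cannot be told apart. WTAPP1, on the other strand, shares 150 exon bases with MMP1 and had 0 FPKM in all 4 libraries.

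MMP2 (ENSG00000087245, GRCh38 chromosome 16, 55389700 to 55506691, plus strand), or gelatinase A, which cuts denatured collagen and basement membrane collagen, was scarce in the controls and scarcer with doxycycline. The FPKM were 0.588 and 0.594 without doxycycline and 0.216 and 0.111 with it, from 46, 51, 20 and 10 reads. The control values were nearly equal, and both doxycycline values lay far below them. The ratio of pooled reads was 0.277 (95% exact interval 0.178 to 0.421, counting error only). Among the 8276 genes with a mean from 0.1 to 1 FPKM, 17.9% were lower in both doxycycline libraries. The log2 difference was -0.45 when the filter on FPKM was left out (limma adjusted p = 0.369). The 5 fibroblast markers summed to 0.687 and 0.640 FPKM without doxycycline and to 0.210 and 0.133 FPKM with it. COL1A1 gave 0.680 and 0.632 FPKM of these sums without doxycycline and 0.190 and 0.0779 FPKM with it. LUM was at 0 FPKM in every library, and DCN was at 0 in both controls and at 0.0207 and 0.0468 FPKM with doxycycline, the other way from COL1A1. The part of other cells in the MMP2 values was not tested beyond these levels.

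MMP14 (ENSG00000157227, GRCh38 chromosome 14, 22836557 to 22849027, plus strand), the membrane-type enzyme that activates MMP2 and cuts collagen at the cell surface, was the most abundant of the 3 MMPs in every library. The FPKM were 12.3 and 14.2 without doxycycline and 16.1 and 14.4 with it. In FPKM both doxycycline libraries were higher than both controls, and the nearest libraries of the groups, control replicate 2 and doxycycline replicate 2, were close. Relative to recovered reads, control replicate 2 (1101 of 17244546) lay slightly above doxycycline replicate 2 (1181 of 18764546). The position of MMP14 thus depends on the library size used. The means were 13.2 ± 1.30 and 15.2 ± 1.14 FPKM (SD, n = 2 each), and the log2 difference of 0.19 did not pass (limma standard error 0.19, adjusted p = 0.614). With MMP1 and MMP2 low, MMP14 made up 97.1% and 97.8% of the summed FPKM of the 3 MMPs with doxycycline, against 70.4% and 81.2% in the controls. The sum itself went from 17.5 and 17.4 FPKM to 16.5 and 14.8 FPKM.

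TIMP1 (ENSG00000102265, GRCh38 chromosome X, 47582313 to 47586789, plus strand), the soluble inhibitor with growth-promoting activity, overlapped between the groups. The FPKM were 48.2 and 40.1 without doxycycline and 46.7 and 40.3 with it, so that each group held a higher and a lower library of about the same levels. The log2 difference was -0.02 (limma standard error 0.22, adjusted p = 0.971), and its sign turned under several scalings, to 0.13 under quantile normalization. TIMP2 (ENSG00000035862, GRCh38 chromosome 17, 78852977 to 78925387, minus strand), the inhibitor that bridges MMP14 and the MMP2 precursor, also overlapped, at 21.5 and 24.2 FPKM without doxycycline and 25.1 and 22.2 FPKM with it. Its log2 difference was 0.05 (limma standard error 0.20, adjusted p = 0.912). For both genes the doxycycline means lay within 1 SD of the control means, and a p that misses the threshold does not show equality. TIMP2 per MMP14 was 1.74 and 1.71 in the controls and 1.56 and 1.54 with doxycycline, as ratios of FPKM with no test. Summed TIMPs per summed MMPs were 4.03 and 3.74 in the controls and 4.37 and 4.23 with doxycycline.

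TIMP3 (ENSG00000100234, GRCh38 chromosome 22, 32801701 to 32863043, plus strand), the inhibitor that stays bound to the extracellular matrix, parted from TIMP1 and TIMP2. The FPKM were 0.904 and 0.848 without doxycycline, 0.347 in doxycycline replicate 1 and 0.0119 in replicate 2. These values rest on 66, 68, 30 and 1 reads. Both doxycycline libraries were lower than both controls, as for 17.9% of the 8276 genes with a mean from 0.1 to 1 FPKM. Replicate 2 was lower than replicate 1. Relative to the control mean, replicate 1 had a ratio of 0.396 (95% exact interval 0.257 to 0.592) and replicate 2 of 0.0135 (3.41e-04 to 0.0769), counting error only. The intervals of the doxycycline libraries did not overlap. With the filter left out, the log2 difference was -0.68 (limma adjusted p = 0.399). COL1A1 was lower in the same libraries, the other 4 fibroblast markers were at or near 0, and the mitochondrial share was higher in replicate 2. The part of these in the TIMP3 values was not tested. The gene overlaps SYN3, on the other strand, and shares no exon base with it.

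**Figure D2:**
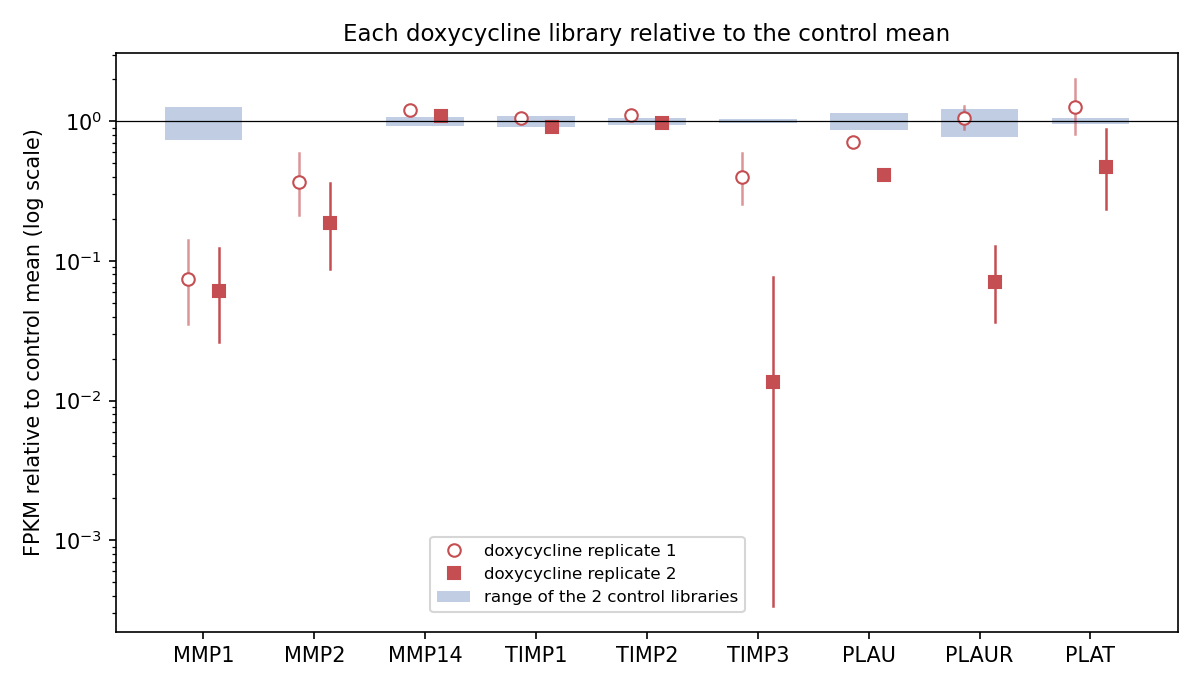
FPKM of each doxycycline library divided by the control mean (vertical log axis) for the 9 genes; open circles are doxycycline replicate 1, filled squares replicate 2, bars are 95% exact counting intervals and blue bands the range of the 2 controls. Both libraries of MMP1 lie near 0.07, whereas TIMP3 and PLAUR lie at 0.396 and 1.05 in replicate 1 and at 0.0135 and 0.0712 in replicate 2.

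PLAU (ENSG00000122861, GRCh38 chromosome 10, 73909177 to 73917497, plus strand), which encodes urokinase-type plasminogen activator, was the highest of the 9 genes in the controls and lower in both doxycycline libraries. The FPKM were 66.1 and 49.98 without doxycycline and 41.4 and 23.9 with it, from 3092, 2568, 2298 and 1292 reads. Replicate 2 was the lower library in each group, and the lowest control lay above the highest doxycycline library. The means were 58.0 ± 11.4 and 32.7 ± 12.4 FPKM (SD, n = 2 each), a ratio of 0.563. On the log2 scale it differed by -0.85, standard error 0.32, which misses the threshold (limma unadjusted p = 0.0378, adjusted p = 0.247). The log2 difference was -1.23 without doxycycline replicate 1 and -0.46 without replicate 2. Without control replicates 1 and 2 it was -0.65 and -1.04. C10orf55, on the other strand, shares 916 exon bases, 31.1% of the PLAU gene length, and lay between 0.109 and 0.274 FPKM. Strandedness is not given in the sources used here, so reads from the shared bases cannot be assigned.

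PLAUR (ENSG00000011422, GRCh38 chromosome 19, 43646095 to 43670547, minus strand), the receptor that holds urokinase at the cell surface, differed between the doxycycline libraries. The FPKM were 2.55 and 1.58 without doxycycline, 2.17 in doxycycline replicate 1 and 0.147 in replicate 2. Replicate 1 lay between the controls, and only replicate 2 lay below them. The reads numbered 180, 123, 182 and 12, and the ratio of replicate 2 to replicate 1 was 0.0677 (95% exact interval 0.0343 to 0.121, counting error only). On the log2 scale it differed by -0.67, standard error 0.49 (limma adjusted p = 0.497). Without doxycycline replicate 1 the log2 difference was -1.40, and without replicate 2 it was 0.07. Without control replicates 1 and 2 it was -0.44 and -0.89. Between the doxycycline libraries, 6.77% of all genes tested differed at least 2-fold in FPKM + 1, PLAUR among them. Replicate 2 is also the library with the higher mitochondrial share, whose part was not tested beyond rescaling. After rescaling to reads outside the mitochondrial genome the log2 difference of PLAUR was -0.70, and it was -1.49 with a pseudocount of 0.1 and -1.74 to -1.80 by voom on recovered reads, none of which passed.

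PLAT (ENSG00000104368, GRCh38 chromosome 8, 42175233 to 42207724, minus strand), the tissue-type activator best known for dissolving clots, was the lowest gene in the controls. The FPKM were 0.238 and 0.217 without doxycycline and 0.289 and 0.107 with it, from 25, 25, 36 and 13 reads. The doxycycline libraries lay on either side of the controls. The ratio of pooled reads was 0.879 with a 95% exact interval of 0.580 to 1.33 (counting error only). The doxycycline libraries differed from each other, with a ratio of replicate 2 to replicate 1 of 0.371 (0.180 to 0.716). Relative to the control mean, replicate 1 had a ratio of 1.27 (0.807 to 2.00) and replicate 2 of 0.471 (0.235 to 0.883). PLAU exceeded PLAT by a ratio of 277 and 230 in the controls and of 143 and 223 with doxycycline. PLAU per PLAUR was 26.0 and 31.5 without doxycycline, 19.1 in doxycycline replicate 1 and 163 in replicate 2.

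**Figure D3:**
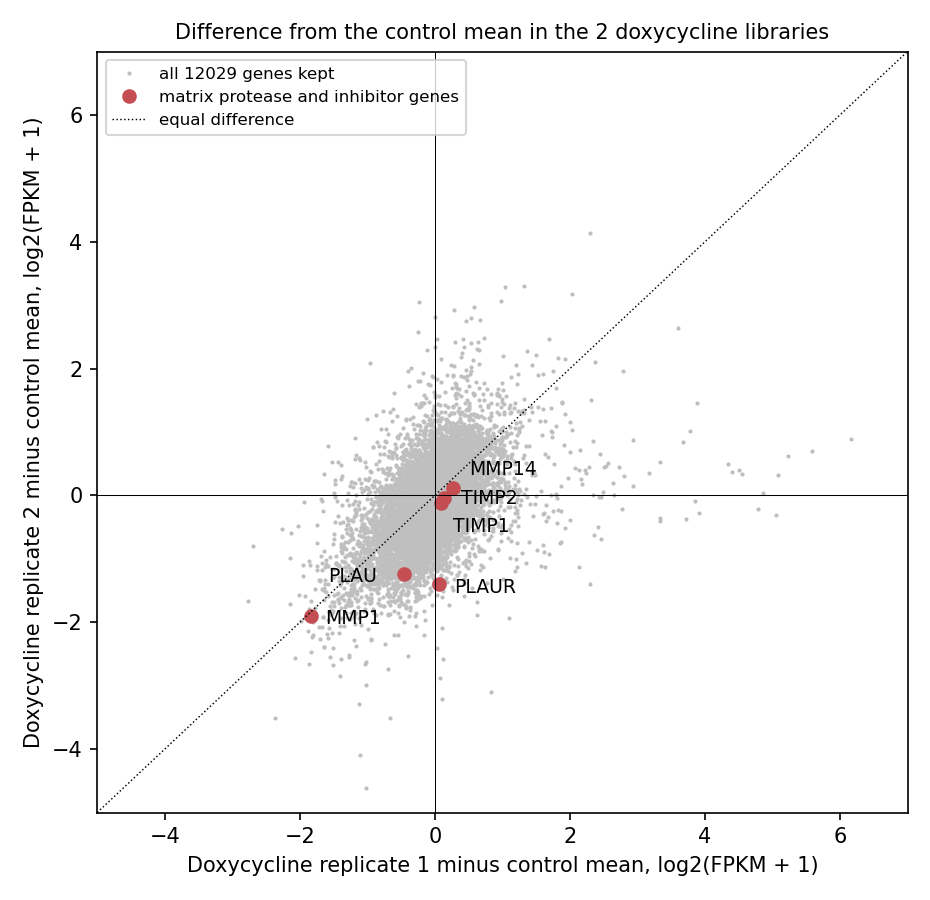
Difference from the control mean on the log2(FPKM + 1) scale in doxycycline replicate 1 (horizontal) and replicate 2 (vertical) for 12029 genes (grey), with 6 of the 9 genes in red and a dotted line of equal difference. MMP1 lies on the line at -1.84 and -1.89, PLAUR lies at 0.07 and -1.40, and MMP14, TIMP1 and TIMP2 lie near the origin. Low values, such as those of MMP1 from 10 and 8 reads, lie close together on this scale.

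The most alike patterns over the 4 libraries were sought among 10222 protein-coding genes for MMP1, PLAU and PLAUR, the genes tested whose libraries spanned at least 1 on the log2(FPKM + 1) scale. Likeness was the Euclidean distance between values centred on the control mean. SEMA7A, a membrane-anchored semaphorin, was nearest to MMP1 at a distance of 0.23, with 5.81 and 3.72 FPKM without doxycycline and 0.728 and 0.345 FPKM with it. LYPD1 followed at 0.26. Like MMP1, SEMA7A and LYPD1 passed the filter on FPKM only through their controls. For PLAU the nearest were TOMM40, the pore of the outer mitochondrial import complex, at 0.04 and RPS19BP1 at 0.06. For PLAUR they were TNFRSF12A, the TWEAK receptor, at 0.06 and the Wnt ligand gene WNT9A at 0.06. TNFRSF12A had 138 and 105 FPKM without doxycycline, 123 in doxycycline replicate 1 and 45.7 in replicate 2, so it too was low only in replicate 2. With 4 libraries many genes can share such a pattern.

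Other genes of matrix proteolysis were taken from 6 lists with 79 genes, of which 42 averaged 1 FPKM or more. Of these 42, 0 passed the limma adjusted threshold in either direction. At an unadjusted p under 0.05 limma gave 1 higher and 8 lower, against 6.47% and 11.9% of all genes tested. The median log2 difference of the 42 was -0.14, beside -0.03 over all genes tested. Both doxycycline libraries were lower than both controls for 17 and higher for 7, against 28.9% and 24.3% of all genes tested.

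Among 20 other MMP genes, 3 were kept, 7 had 0 reads in every library (which allows up to 3 reads in each) and none passed. The 3 kept all encode membrane-type enzymes. MMP16 had 1.32 and 1.21 FPKM without doxycycline and 0.733 and 0.735 FPKM with it (limma adjusted p = 0.392). It passed the filter only through its controls, so its place among the genes kept and among the 17 lower ones is tied to its difference. MMP15 and MMP24 overlapped, with log2 differences of -0.14 and 0.18. The neighbouring MMP3, MMP8, MMP10, MMP12, MMP13 and MMP27 genes on chromosome 11, which carries MMP1, were among those without a read. MMP7 and MMP20, on the same chromosome, did give reads. MMP7 had 1 and 0 reads in the controls and 9 and 43 reads with doxycycline. MMP20 had 0 and 0 reads in the controls and 1 and 4 reads with doxycycline.

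Of 8 ADAM and ADAMTS genes kept, both doxycycline libraries were higher for 3 and lower for 2, against 24.3% and 28.9% of all genes tested. None of the 8 passed. ADAM19, a sheddase, was the lowest relative to its controls. The FPKM were 5.56 and 5.78 without doxycycline and 1.24 and 2.09 with it, a log2 difference of -1.34 (limma adjusted p = 0.0682). That difference was -1.11 and -1.58 without doxycycline replicates 1 and 2. ADAMTS9, a proteoglycan-cutting enzyme, stood at 5.38 and 7.92 FPKM against 9.93 and 13.9 FPKM (log2 difference 0.76, limma adjusted p = 0.214). Its log2 difference was 0.99 and 0.54 without doxycycline replicates 1 and 2. ADAM15 and ADAM17, the latter the TNF converting enzyme, had log2 differences of -0.41 and 0.39. For ADAM15 it was -0.66 and -0.16 without doxycycline replicates 1 and 2.

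Of 8 further inhibitors kept, 1 was lower and 1 higher in both doxycycline libraries, against 28.9% and 24.3% of all genes tested. None of the 8 passed. SPINT2, a Kunitz inhibitor of serine proteases, stood at 82.9 and 73.8 FPKM against 71.4 and 34.5 FPKM (log2 difference -0.64, limma adjusted p = 0.392), and was low mainly in doxycycline replicate 2. CSTB, or cystatin B, an inhibitor of cathepsins, overlapped, with a log2 difference of -0.22. SERPINE2, or protease nexin 1, which inhibits urokinase and thrombin, had 32.6 and 32.9 FPKM without doxycycline and 39.2 and 66.8 FPKM with it (log2 difference 0.63, limma adjusted p = 0.318). SERPINF2, or alpha 2-antiplasmin, overlapped, with 6.02 FPKM in doxycycline replicate 2 and 0.483 to 1.86 FPKM in the other libraries. Without doxycycline replicate 1, SPINT2, SERPINE2 and SERPINF2 stood at log2 differences of -1.16, 1.01 and 1.77. Without replicate 2 they stood at -0.13, 0.25 and 0.30.

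Plasminogen itself gave a read in doxycycline replicate 1 only. Of 7 genes kept among its binding proteins and clearance receptors, 4 were lower and 1 higher in both doxycycline libraries. The shares of all genes tested were 28.9% and 24.3%, and none of the 7 passed. MRC2, the endocytic collagen receptor that associates with PLAUR, had 26.8 and 31.1 FPKM without doxycycline and 14.6 and 11.1 FPKM with it. Its log2 difference was -1.12 (limma adjusted p = 0.0828), and it was -1.30 and -0.94 without doxycycline replicates 1 and 2. ENO1, a glycolytic enzyme that also binds plasminogen, had a log2 difference of -0.54. PLGRKT, the plasminogen receptor with a C-terminal lysine, had 0.17, and LRP1, which clears protease and inhibitor complexes, had 0.41.

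Of 8 activation and docking partners of MMPs kept, 6 were lower in both doxycycline libraries and 0 higher, against 28.9% and 24.3% of all genes tested. Their median log2 difference was -0.63, and none passed. CD44, the hyaluronan receptor that docks MMP14, had 68.3 and 60.9 FPKM without doxycycline and 31.2 and 28.4 FPKM with it (log2 difference -1.09, limma adjusted p = 0.0795). CAV1, the caveolar coat protein, stood at 138 and 118 FPKM against 66.0 and 54.3 FPKM (log2 difference -1.08, adjusted p = 0.103). Without doxycycline replicate 1 the log2 differences of CD44 and CAV1 were -1.16 and -1.22, and without replicate 2 they were -1.02 and -0.94. PCSK5, a proprotein convertase, overlapped (log2 difference 0.06). FURIN, another convertase, had 33.7 and 35.2 FPKM without doxycycline and 20.7 and 17.3 FPKM with it. Its log2 difference was -0.83 (limma adjusted p = 0.130).

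Of 8 cathepsins and other matrix proteases kept, 3 were lower and 2 higher in both doxycycline libraries. The shares of all genes tested were 28.9% and 24.3%, and none of the 8 passed. The serine protease gene PRSS23 had 15.9 and 13.9 FPKM without doxycycline and 8.19 and 11.03 FPKM with it (log2 difference -0.59), and CTSZ, or cathepsin Z, had -0.69. Without doxycycline replicate 1 PRSS23 and CTSZ stood at -0.40 and -0.93, and without replicate 2 at -0.79 and -0.46. DPP4, a cell surface dipeptidase, stood at 2.20 and 2.76 FPKM against 3.40 and 9.55 FPKM (log2 difference 0.97, limma adjusted p = 0.281), and CTSK, or cathepsin K, had 0.26. DPP4 passed without doxycycline replicate 1 (adjusted p = 1.10e-04), and its log2 difference was 0.34 without replicate 2 (adjusted p = 0.279). Over all 6 lists 4 genes passed higher and 9 lower without doxycycline replicate 1 (32.8% of all genes passed then), and 0 higher and 8 lower without replicate 2 (13.3%). Without either control replicate 0 passed, list genes and all other genes alike.

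**Figure D4:**
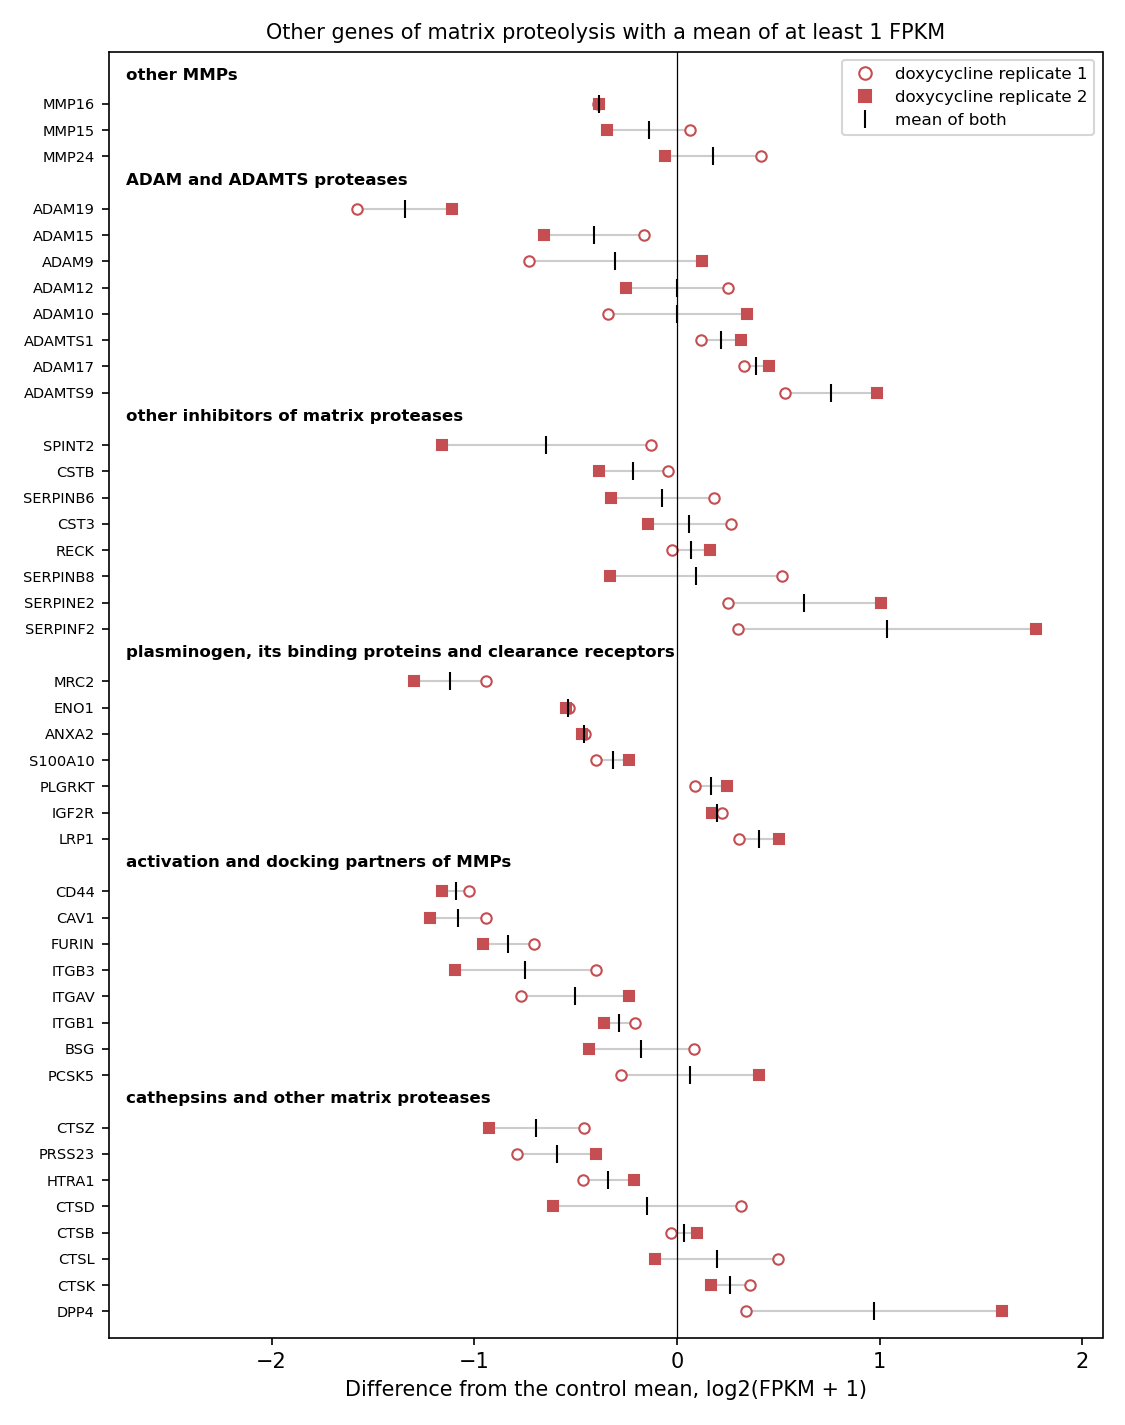
Difference from the control mean on the log2(FPKM + 1) scale (horizontal) for the 42 other genes that averaged 1 FPKM or more, grouped by list; open circles are doxycycline replicate 1, filled squares replicate 2 and ticks their mean. CD44, CAV1, MRC2 and ADAM19 lie left of 0 in both libraries, whereas SPINT2 lies at -0.13 and -1.16.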

How the data were processed

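RNA was sequenced from 4 libraries, 2 untreated and 2 given doxycycline, grouped and numbered by their titles. The values are FPKM, deposited by the authors as 1 table per library, per the file headers. The submitters' processing notes list HISAT2 2.0.5, featureCounts 1.5.0-p3 and limma without saying what each did. Build, strandedness, filters and the library size behind FPKM are not given in the sources used here. All 58735 gene models were identical to GENCODE release 29 (GRCh38), used for overlaps.

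FPKM multiplied by gene length fell on whole multiples of a step for 100.0% of genes (tolerance 0.02 reads), which gave reads and depth. The 12029 genes that averaged 1 FPKM or more entered limma-trend (limma 3.58.1, R 4.3.3) on log2(FPKM + 1), two-sided, without covariates (2 residual degrees of freedom), adjusted by Benjamini-Hochberg over all of them. The threshold was an adjusted p under 0.05. Intervals of read ratios are exact conditional binomial (95%). Other steps used scipy 1.17.1, numpy 2.4.6 and pandas 2.3.3 under Python 3.11.15. The fit was tested on simulated data.

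The 9 genes and the 6 lists were chosen with earlier results of these data known. Genes named are the 9, USP35, the 2 of each list with the lowest p in each direction, and the 2 nearest patterns. Others were chosen after their values were seen. 1 gene was left out of the lists and is not reported here. Alternatives were a pseudocount of 0.1, other filters, scalings, voom on recovered reads, no trend, a replicate block and each library left out.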

Additional observations from a re-analysis of the deposited data

How the results depend on the processing

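The number of genes past the threshold was 0 over 12029 genes and stayed 0 with a pseudocount of 0.1, without the filter, under quantile normalization, without mitochondrial genes, by voom with library totals and without the trend. It was 261 with a mean of at least 5 FPKM, 121 by voom with median-of-ratios sizes, 234 with library quality weights and 242 over protein-coding genes, and ranged from 0 (without either control) to 3942 (without doxycycline replicate 1) when a library was left out. It was 1605 without doxycycline replicate 2. Of the 6 matrix protease and inhibitor genes tested, 1 passed, MMP1, by voom with median-of-ratios sizes and over protein-coding genes, and the number ranged from 0 to 3 with a library left out (MMP1, PLAU and PLAUR without doxycycline replicate 1). With the replicate number as a block 784 genes passed, and 1 of the 6, MMP1 (limma adjusted p = 0.00373). Of the 42 list genes 5 passed with the block, SERPINF2 higher and ADAM19, MRC2, CD44 and CAV1 lower. With the block 6.52% of all genes tested passed. That share was 1.01% by voom with median-of-ratios sizes and 2.37% over protein-coding genes. The labels do not say that a number marks a shared culture, and deviations of same-numbered libraries correlated at 0.21 over 12029 genes from only 2 pairs. On the log2 scale MMP1 was -3.39 with a pseudocount of 0.1 and -3.72 to -3.73 by voom, against -1.87. MMP14, PLAU and MMP1 kept their sign in every alternative that included them. TIMP1 turned to 0.13 under quantile normalization, 0.0237 without mitochondrial genes and 0.0278, 0.0190 and 0.0273 by voom with library totals, median-of-ratios sizes and quality weights, and ranged from -0.15 to 0.11 with a library left out. TIMP2 ranged from -0.0332 to 0.135 and PLAUR from -1.40 to 0.0675 with a library left out. A lone library was assumed to vary like the other group. The cause of these shifts was not tested. MMP2, TIMP3 and PLAT, with 1 to 68 reads in a library, are limited by depth.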

Other observations

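Several proteases below the filter on FPKM, chosen after their values were seen, also differed between libraries. MMP7, or matrilysin, a small MMP made by epithelial cells, had 1 and 0 reads in the controls, 9 reads in doxycycline replicate 1 and 43 reads in replicate 2. It was thus detected mainly with doxycycline, at 0.206 and 1.01 FPKM, while MMP1 of the same chromosome was low there. ADAMTS10, which acts in microfibril assembly, had 65 and 83 reads in the controls and 20 and 16 reads with doxycycline. ADAMTS6 had 128 and 137 reads in the controls and 53 and 28 reads with doxycycline. Being lower in both doxycycline libraries applied to 17.9% of the 8276 genes with a mean from 0.1 to 1 FPKM. ADAMTS13 went the other way, with 31 and 44 reads without doxycycline and 111 and 49 reads with it. So did CTSS, with 3 and 3 reads without doxycycline and 16 and 12 reads with it. MMP17, a membrane-anchored MMP, had 42 and 30 reads without doxycycline, 34 in doxycycline replicate 1 and 7 in replicate 2, low in the same library as PLAUR. TIMP3 was lowest in that library too, but was below the controls in both doxycycline libraries.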
